A study of Mus musculus with 8 samples.

Results

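Smooth muscle contractile genes are the genes for the actin, myosin and regulatory proteins with which visceral muscle cells shorten, together with the channels, receptors and regulators that mark those cells. The set held 32 genes, chosen by name and read from the deposited count table of 39179 genes by Ensembl identifier. All 32 were in the table, and all 32 passed the filter on low counts that left 18345 genes for testing. RNA of whole tissue was sequenced in 8 mouse libraries of an inbred C57BL6/J background. The 3 wild-type libraries were of small intestine from VilCreER+ mice. The 5 adenoma libraries were of adenomas (benign tumours of the epithelium) taken from the small intestine of VilCreER+ APCfl/+ mice with 1 floxed and 1 normal Apc allele. All mice carried VilCreER, a Cre recombinase fused to part of the oestrogen receptor, and per the labels tissue of both groups had undergone recombination with tamoxifen, which switches the enzyme on. The villin promoter drives this Cre in intestinal epithelium and not in muscle cells. The design text calls the wild-type tissue whole intestine and the adenoma-bearing mice aged. The sources used here do not give exact ages, any pooling of animals, or how much of the muscle wall was taken with an adenoma. The dissection and the tumour state therefore cannot be told apart, nor can fewer muscle cells and less RNA per muscle cell. Whether each library is a mouse of its own is not stated in the labels, and the p-values then reflect the spread among these 8 samples, which may be technical.

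The small intestine has an outer muscle wall of a circular and a longitudinal layer, with the enteric nerve plexus between them, and a thin muscle sheet at the base of the mucosa. Smooth muscle contracts when calcium enters through voltage-gated channels or leaves internal stores, binds calmodulin and activates myosin light chain kinase. The kinase phosphorylates the light chain of myosin, and a myosin phosphatase reverses this. The genes of this machinery are switched on together by serum response factor (SRF) with its partner myocardin. SRF binds a DNA element called the CArG box.

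Because SRF is a known regulator of many such genes, the 250 bases before the start of each gene were searched for the CArG box. The search covers both strands, because the sequence of the box is its own reverse complement in pattern. Whether SRF regulates each of the 32 genes was not tested. RefSeq start sites (GRCm38.p6) were given for 27 of the 32 genes. Actg2, Myh11, Tagln, Myocd and Nexn had no entry. An exact CArG box stood before 2 of the 27, Myl9 and Ldb3, or 7.41%, against 1.62% of all 27025 genes in the table. With 1 C or G allowed among the 6 inner letters, a looser search chosen after seeing the data, 6 of the 27 had a match, or 22.2%, against 9.78% of all genes. The 6 were Myl9, Ldb3, Acta2, Synm, Pdlim3 and Cacna1c. A match describes letters in this window and is not a measured binding site. The 3 sequences below, with matches in capitals, belong to genes that differ in what they did in adenoma. Ldb3 was the only member to pass the test against a fall by a factor of 2 (glmTreat), Acta2 is the usual marker of smooth muscle and did not pass the test, and Myl9 had nearly equal means in both groups.
Ldb3 (chr14:34588682-34588931, minus strand): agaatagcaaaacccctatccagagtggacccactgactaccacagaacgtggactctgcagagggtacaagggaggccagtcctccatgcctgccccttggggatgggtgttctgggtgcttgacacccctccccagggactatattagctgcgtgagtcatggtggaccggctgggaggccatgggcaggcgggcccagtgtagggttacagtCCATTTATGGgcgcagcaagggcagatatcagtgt
Acta2 (chr19:34255374-34255623, minus strand): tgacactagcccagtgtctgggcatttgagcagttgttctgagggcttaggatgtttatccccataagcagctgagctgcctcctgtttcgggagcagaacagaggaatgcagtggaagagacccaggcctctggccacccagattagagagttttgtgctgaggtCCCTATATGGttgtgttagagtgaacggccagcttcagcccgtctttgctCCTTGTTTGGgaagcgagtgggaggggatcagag
Myl9 (chr2:156775214-156775463, plus strand): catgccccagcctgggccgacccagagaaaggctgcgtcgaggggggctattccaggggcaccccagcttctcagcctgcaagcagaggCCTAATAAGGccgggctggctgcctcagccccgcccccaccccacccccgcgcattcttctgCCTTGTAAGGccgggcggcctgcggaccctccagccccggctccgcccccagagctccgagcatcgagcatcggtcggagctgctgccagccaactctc

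Some libraries stood apart before any muscle gene was read. Total counts ran from 18040301 to 28343915 per library. Apc, the floxed gene, ran from 191 to 211 CPM (counts scaled by library size) in the wild-type libraries and from 132 to 159 CPM across adenomas, counted over the whole gene, so the value does not measure recombination. Adenoma 2 held 245.5 CPM of the hindgut gene Hoxb13, which was at most 0.894 CPM elsewhere, and 0.470 CPM of the upper intestinal gene Gata4, at 68.4 CPM or more elsewhere, although its label is small intestine. Summed pancreatic enzyme genes were high in wild type 1, at 1162 CPM, and in adenoma 5, at 842 CPM, against at most 133 CPM in the others. Xist marked adenomas 2 to 5 as female (432 CPM or more), while the wild-type libraries and adenoma 1 had at most 1.75 CPM and carried the Y-linked gene Ddx3y. Sex thus differs between the groups for all adenomas but adenoma 1. Adenoma 1 lay below every wild-type library in all 20 members called lower and above every one in all 4 called higher. The female adenomas 3 and 4 did the same, and the calls came from a fit that included adenoma 1. The part of sex in these values was not tested.

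Most smooth muscle genes were lower in adenomas, and by unequal amounts. Of the 32 genes, 20 were called lower and 4 higher (edgeR, with quasi-likelihood F tests and p adjusted over all genes by Benjamini-Hochberg, threshold 0.05), and 8 were not called. Over all genes tested, 27.8% were called lower and 30.3% higher. The median log2 fold change of adenoma over wild type was -0.75 for the 32 genes, or 0.597 of the wild-type level, against 0.044 for all genes. Throughout, ± is the SD over libraries (n = 3 wild type, n = 5 adenoma) for CPM and ratios and the SE of the fit for log2 fold changes, and adjusted p is that of this edgeR test. In 13 genes every adenoma lay below every wild-type library, as in 27.6% of all genes, and in 4 every adenoma lay above, as in 29.3%. Only Ldb3 was lower by more than a factor of 2 in a test against that size (glmTreat), which 7.52% of all genes passed. The summed CPM of the 32 genes was 4393 ± 959 (SD, n = 3) in wild type and 2973 ± 553 (n = 5) in adenoma, and the groups overlapped, at 3287 to 4975 and 2316 to 3795. Without wild type 1 or wild type 2 the count of lower genes among the 32 was 12 or 11. Without both wild type 1 and adenoma 5 it was 10, and without adenoma 2 it was 24. The calls over all genes moved too, with 4135 to 6092 lower when 1 library was left out, against 5099 with all libraries. Scaled to equal counts of epithelial genes, 13 were lower and 1 higher, and 29.5% of the calls over all genes were higher, against 52.2% with the main scaling. Of the 12 epithelial genes used, 7 were themselves called higher and 1 lower with the main scaling. This setting moved the median of all genes by -0.24, so rises lost under it are not thereby shown to be false.

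**Figure D1:**
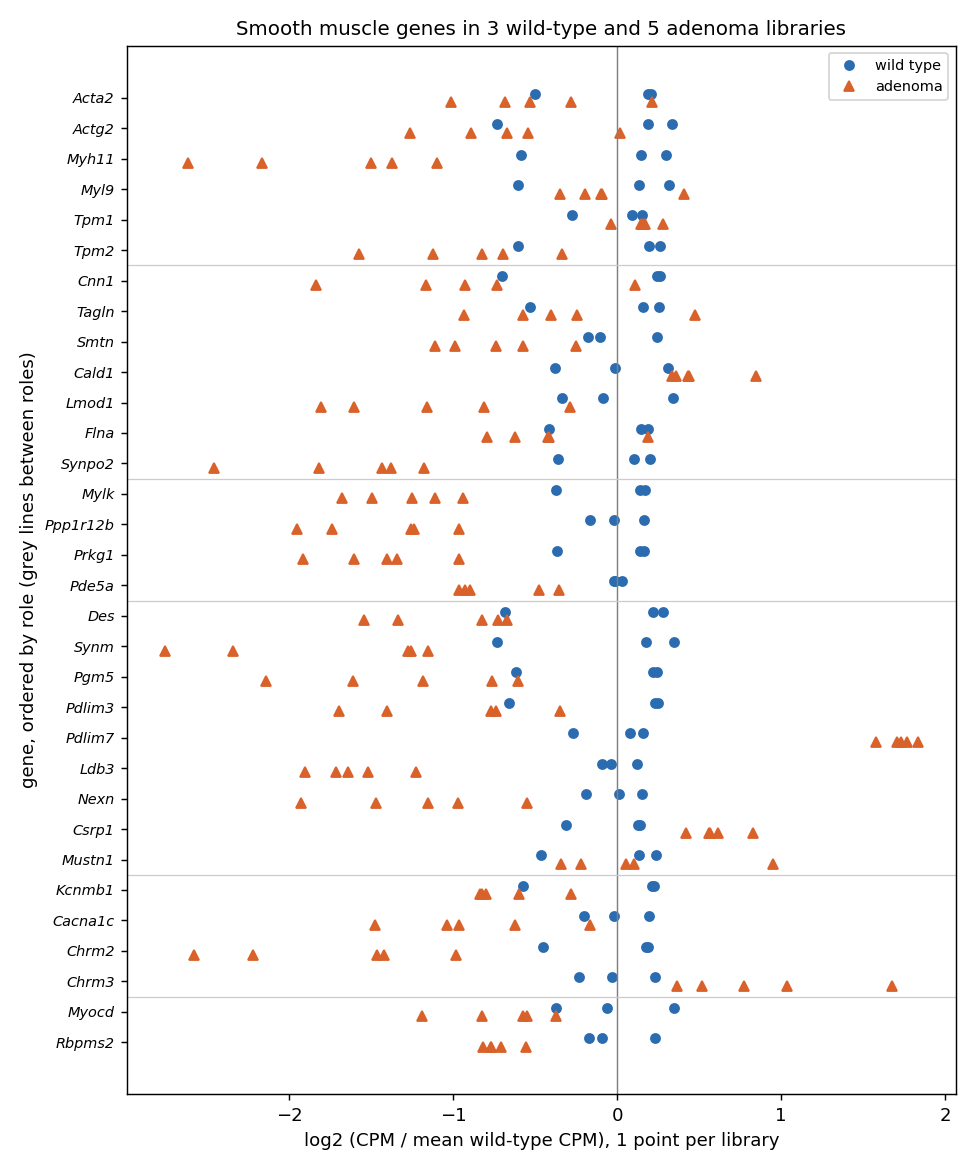
Level of each smooth muscle gene in each library as log2 of CPM over the mean wild-type CPM (circles, 3 wild-type libraries; triangles, 5 adenomas), with genes ordered by role. The adenomas lie to the left for most genes, to the right for Pdlim7, Csrp1, Chrm3 and Cald1, and mixed with wild type for genes such as Acta2, Tagln and Flna.

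**Figure D2:**
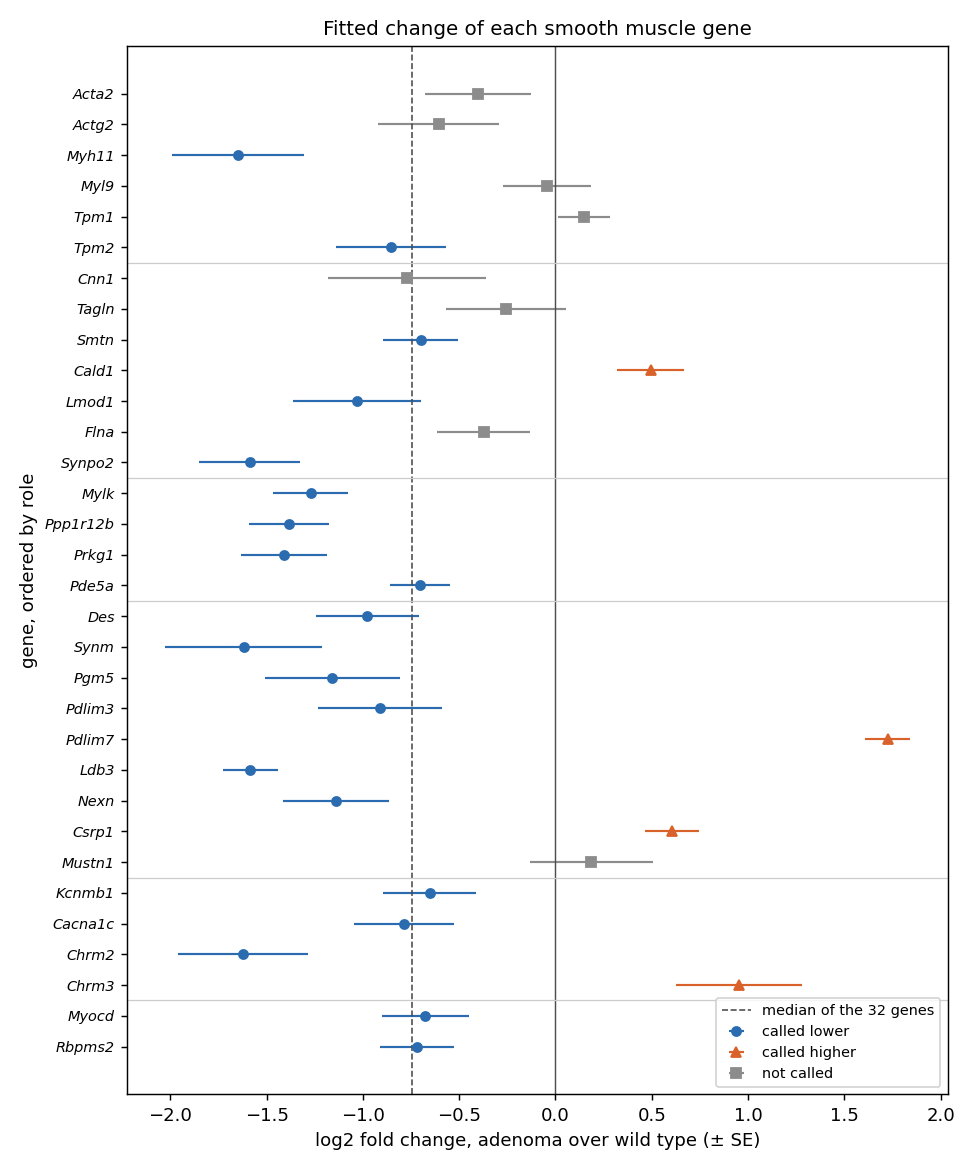
Fitted log2 fold change of adenoma over wild type with its SE for the 32 genes, coloured by the edgeR call. The dashed line is their median of -0.75; Myh11 lies lowest at -1.65 and Pdlim7 highest at 1.72.

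Of the 6 genes of the actin and myosin filaments, 2 were called lower and 4 were not called. Myh11, the smooth muscle myosin heavy chain that forms the motor, stood at 699, 777 and 422 CPM in wild type 1 to 3 and at 141, 295, 244, 103 and 224 CPM in adenomas 1 to 5. Every adenoma was below every wild-type library, and the fall was by a log2 fold change of -1.65 ± 0.34 (adjusted p = 0.00367), or 3.14 times less. Tpm2, a tropomyosin that lies along the actin filament, stood at 126, 132 and 72.3 CPM in wild type 1 to 3 and at 50.5, 87.1, 67.9, 37.01 and 62.3 CPM in adenomas 1 to 5. Its groups overlapped, because wild type 3 was below adenoma 2, and its change of -0.85 ± 0.28 (adjusted p = 0.0307) lost the call in 9 of 19 alternative analyses. Myl9, the light chain that the kinase phosphorylates, had the highest level per kilobase of exon of all 32 genes in both groups (131 and 127 CPM per kb). It stood at 189, 167 and 99.8 CPM in wild type 1 to 3 and at 202, 132, 142, 119.5 and 142 CPM in adenomas 1 to 5, with adenoma 1 highest of all 8 and wild type 3 lowest, and its log2 fold change was -0.043 ± 0.23 (adjusted p = 0.882). The actins gave values of the same sign that did not pass: Acta2, the alpha actin of smooth muscle, had a log2 fold change of -0.40 ± 0.28 (adjusted p = 0.239) and Actg2, the gamma actin of enteric muscle, -0.61 ± 0.31 (adjusted p = 0.1295). Acta2 ran from 165 to 269 CPM (wild type) and from 116 to 269.8 CPM across adenomas. Tpm1, a tropomyosin made in many cell types, had 0.15 ± 0.14 (adjusted p = 0.375).

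The order of levels per kilobase shifted with this. In wild type the highest after Myl9 were Acta2 (106 CPM per kb), Flna (105), Myh11 (83.2), Csrp1 (67.001) and Tpm1 (65.4). In adenoma they were Csrp1 (102 CPM per kb), Flna (81.1), Acta2 (80.5), Tpm1 (72.5) and Tagln (54.1). Myh11 went from rank 4 to rank 8, at 26.5 CPM per kb. Neighbouring ranks at the top, such as Acta2 and Flna in either group, were closer than the spread of the libraries. The lowest were Chrm3 in wild type (0.283 CPM per kb) and Prkg1 in adenoma (0.368).

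The 7 genes that regulate or bind the thin filament went from a 3-fold fall to a small rise, with 3 lower, 1 higher and 3 not called. Synpo2, or myopodin, an actin-bundling protein of the Z disc and dense body, stood at 79.2, 84.99 and 57.5 CPM in wild type 1 to 3 and at 20.97, 32.7, 27.3, 13.4 and 28.4 CPM in adenomas 1 to 5. No adenoma reached the lowest wild-type library, and the log2 fold change was -1.59 ± 0.26 (adjusted p = 0.00119). Lmod1, leiomodin, which starts new actin filaments in smooth muscle, stood at 17.8, 23.97 and 15.004 CPM in wild type 1 to 3 and at 5.41, 15.5, 10.8, 6.23 and 8.46 CPM in adenomas 1 to 5. Adenoma 2 lay inside the wild-type range, the change was -1.03 ± 0.33 (adjusted p = 0.0266), and without wild type 2 the adjusted p was 0.108. Smtn, smoothelin, a marker of contractile as opposed to synthetic muscle cells, fell by 0.70 ± 0.20 on the log2 scale (adjusted p = 0.0141). Cald1, caldesmon, which holds back myosin on actin and has a second form in non-muscle cells, stood at 50.8, 63.5 and 39.4 CPM in wild type 1 to 3 and at 69.4, 92.1, 64.7, 65.7 and 69.2 CPM in adenomas 1 to 5. All adenomas were above all wild-type libraries, at 0.49 ± 0.17 (adjusted p = 0.0355), but the call was lost in 8 of 19 alternatives, with a log2 fold change of 0.30 when scaled by epithelial genes. Flna, filamin A, a crosslinker of actin found in most cells, had the largest share of counts, at 1127, 1094 and 742 CPM in wild type 1 to 3 and at 640.5, 1124, 739.6, 569.9 and 738 CPM in adenomas 1 to 5. Adenoma 2 was within the wild-type range and the others were below its lowest library, and the change was -0.37 ± 0.24 (adjusted p = 0.212), or -0.56 (adjusted p = 0.0126) without adenoma 2. Tagln (transgelin, or SM22) and Cnn1 (calponin), both common muscle markers, gave -0.26 ± 0.31 (adjusted p = 0.4996) and -0.77 ± 0.41 (adjusted p = 0.1398).

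All 4 genes of the switch that turns contraction on and off fell, each with every adenoma below every wild-type library. Mylk, the myosin light chain kinase, stood at 539, 528 and 369 CPM in wild type 1 to 3 and at 221, 149, 249, 170.05 and 201 CPM in adenomas 1 to 5. Adenoma 2, the highest adenoma for most muscle genes, was the lowest here, and the log2 fold change was -1.27 ± 0.19 (adjusted p = 7.18e-04). Ppp1r12b, a targeting subunit of the myosin phosphatase, stood at 81.98, 93.2 and 73.98 CPM in wild type 1 to 3 and at 24.9, 42.6, 35.3, 21.5 and 34.8 CPM in adenomas 1 to 5. Its change was -1.38 ± 0.21 (adjusted p = 6.97e-04). Prkg1, the cyclic GMP-dependent kinase through which nitric oxide relaxes muscle, stood at 11.7, 11.9 and 8.24 CPM in wild type 1 to 3 and at 3.496, 5.45, 4.02, 2.81 and 4.198 CPM in adenomas 1 to 5, a change of -1.41 ± 0.22 (adjusted p = 8.59e-04). These 3 kept their calls in all 19 alternatives. Pde5a, the phosphodiesterase that breaks down cyclic GMP, fell less, from between 178 and 184 CPM in the wild-type libraries to between 92.6 and 141 CPM across adenomas, a change of -0.70 ± 0.16 (adjusted p = 0.00485).

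The 9 genes of intermediate filaments, dense bodies and anchoring spanned a wide range in both directions, with 6 lower, 2 higher and 1 not called. Ldb3, a PDZ and LIM protein that links actinin to the Z disc, stood at 79.8, 76.9 and 88.9 CPM in wild type 1 to 3 and at 28.6, 21.8, 35.03, 26.2 and 24.9 CPM in adenomas 1 to 5. The gap between the groups was wide, the log2 fold change was -1.58 ± 0.14 (adjusted p = 5.83e-05), and the adjusted p against a factor of 2 was 0.00491. Synm, synemin, an intermediate filament protein that pairs with desmin, stood at 97.6, 110.02 and 51.996 CPM in wild type 1 to 3 and at 17.1, 38.9, 36.2, 12.8 and 35.8 CPM in adenomas 1 to 5. Its change was -1.62 ± 0.41 (adjusted p = 0.0105), with adenomas 1 and 4 lowest and all 5 below wild type. Des, desmin, the main intermediate filament of muscle, went from 175 ± 57.5 to 88.9 ± 22.6 CPM, a change of -0.98 ± 0.27 (adjusted p = 0.0135). Adenoma 5 at 110.02 CPM was just above wild type 3 at 108.8 CPM, and without wild type 1 the adjusted p of Des was 0.0615. Pgm5, a protein of adherens-type junctions in muscle, changed by -1.16 ± 0.35 (adjusted p = 0.0213), Nexn, an actin-binding Z disc protein, by -1.14 ± 0.28 (adjusted p = 0.00739), and Pdlim3, another PDZ and LIM protein, by -0.91 ± 0.32 (adjusted p = 0.0387). The Pdlim3 call was lost in 11 of 19 alternatives.

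Against these, 2 genes of the same group rose. Pdlim7, enigma, a PDZ and LIM protein also made outside muscle, stood at 19.9, 18.8 and 14.8 CPM in wild type 1 to 3 and at 58.1, 60.6, 59.1, 63.5 and 53.1 CPM in adenomas 1 to 5. The adenomas were close to each other and all far above wild type, at 1.72 ± 0.12 (adjusted p = 2.04e-05), and this was the only member higher by more than a factor of 2 (adjusted p = 6.21e-04 against that size). Csrp1, a LIM protein that binds actinin and is also made outside smooth muscle, stood at 145, 143 and 106 CPM in wild type 1 to 3 and at 201, 233, 193, 175 and 194 CPM in adenomas 1 to 5. Its change was 0.60 ± 0.14 (adjusted p = 0.00572), and the call was lost when libraries were scaled by epithelial genes, with a log2 fold change of 0.40. Mustn1, a small nuclear protein of the musculoskeletal system, ran from 3.49 to 5.68 CPM (wild type) and from 3.80 to 9.34 CPM across adenomas, and was not called.

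Among the 4 channels and receptors, the muscarinic receptors went opposite ways. Chrm2, the more abundant muscarinic acetylcholine receptor of gut muscle, stood at 26.2, 26.4 and 16.9 CPM in wild type 1 to 3 and at 3.87, 8.64, 11.7, 4.97 and 8.395 CPM in adenomas 1 to 5. All adenomas were below wild type, adenoma 1 lowest, and the change was -1.62 ± 0.34 (adjusted p = 0.00373). Chrm3, the receptor that triggers contraction and is also found on epithelium, stood at 1.73, 1.505 and 2.07 CPM in wild type 1 to 3 and at 3.03, 2.54, 2.28, 5.66 and 3.62 CPM in adenomas 1 to 5. All adenomas were above wild type, adenoma 4 most, at 0.95 ± 0.33 (adjusted p = 0.0331), but leaving out any 1 wild-type library ended the call, at adjusted p of 0.0576 to 0.105. Cacna1c, the pore of the L-type calcium channel, and Kcnmb1, the muscle subunit of the large potassium channel, changed by -0.79 ± 0.26 (adjusted p = 0.0286) and -0.65 ± 0.24 (adjusted p = 0.0437). Kcnmb1 was at no more than 3.79 CPM and lost its call in 11 of 18 alternatives. Cacna1c lost its call in 7 of 19. The groups overlapped for both genes, and for Cacna1c adenoma 2 at 15.4 CPM was above wild type 3 at 15.1 CPM.

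Both regulators of muscle identity were lower. Myocd, myocardin, the partner of SRF, stood at 5.55, 9.14 and 6.87 CPM in wild type 1 to 3 and at 4.06, 5.54, 4.83, 3.16 and 4.91 CPM in adenomas 1 to 5. The groups did not overlap but nearly met, since adenoma 2 was just under wild type 1, and the change was -0.68 ± 0.23 (adjusted p = 0.0296), with an adjusted p of 0.149 without wild type 2. Rbpms2, an RNA-binding protein of visceral muscle precursors, stood at 2.24, 1.78 and 1.69 CPM in wild type 1 to 3 and at 1.17, 1.08, 1.12, 1.297 and 1.12 CPM in adenomas 1 to 5. All adenomas were below wild type, at -0.72 ± 0.19 (adjusted p = 0.0116), and without wild type 1 the adjusted p was 0.0522. A 36-base window search found 13.6% of its transcript windows in the related gene Gm3470, so the authors' counting could split or drop some of its reads.

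Within each group most muscle genes were high or low in the same libraries. Adenoma 2 was the highest adenoma for 23 of the 32 genes and adenoma 4 the lowest for 22. Wild type 3 was the lowest wild-type library for 27 and wild type 2 the highest for 18. The summed level was 3795 CPM in adenoma 2 and 2316 CPM in adenoma 4, against 3287 CPM in wild type 3, 4917 in wild type 1 and 4975 in wild type 2. The SD of log2 CPM had a median over the 32 genes of 0.34 in wild type and 0.43 in adenoma, above the 0.18 and 0.26 of all genes. Genes that did not follow were Ldb3, Mylk and Rbpms2, in which adenoma 2 was the lowest, and Chrm3, Pdlim7 and again Rbpms2, in which adenoma 4 was the highest. Wild type 3 was also the highest wild-type library for Ldb3, Nexn and Chrm3.

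**Figure D3:**
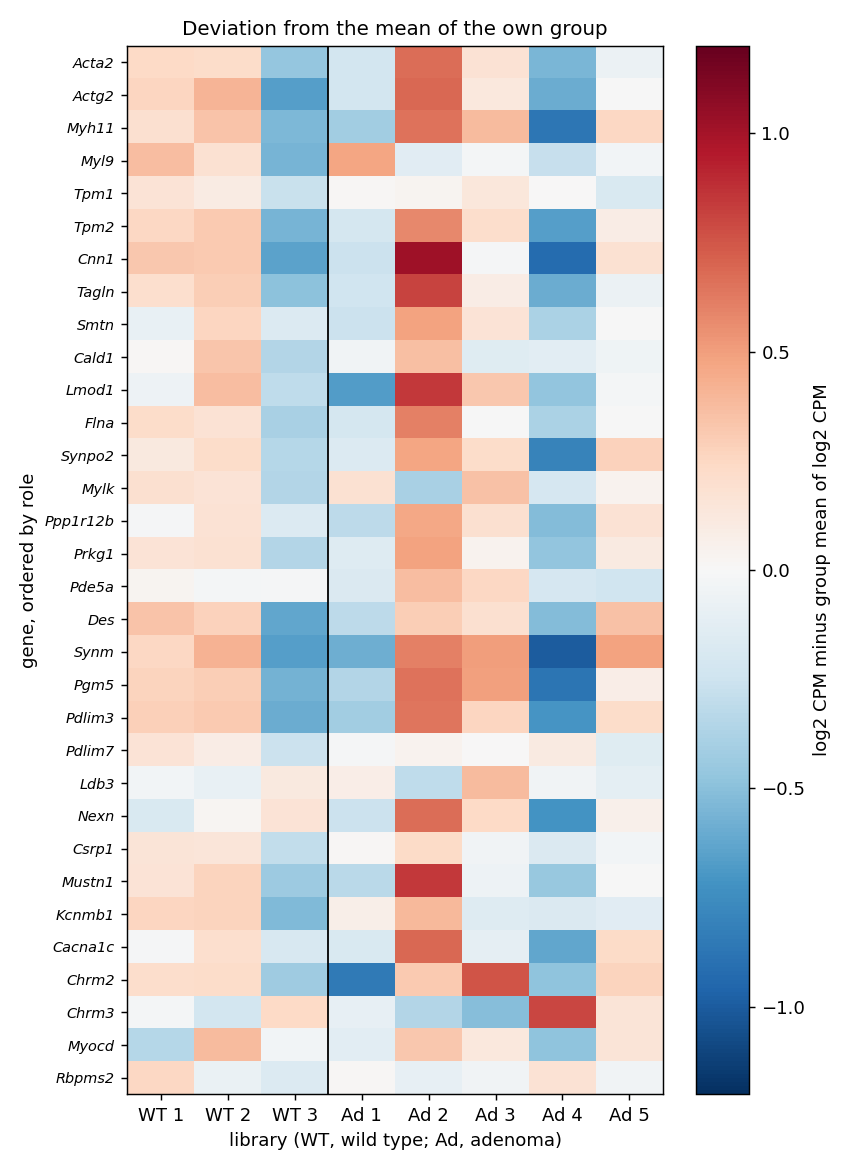
Log2 CPM of each gene in each library minus the mean of its own group (red, above; blue, below). Columns of 1 colour show libraries in which most muscle genes deviated together: wild type 3 and adenoma 4 low, adenoma 2 high.

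Because libraries differed in this shared way, each gene was also set against Acta2 of the same library, a ratio of counts that does not depend on library scaling. The choice of Acta2 was made after its values were seen. Pericytes and vascular muscle also make Acta2, so the ratio does not correct for the share of gut wall muscle. Acta2 had a log2 fold change of -0.40, which was not called, against a median of -0.75 for the 32 genes. A gene that fell more than Acta2 has a lower mean ratio by construction. Of the 31 other genes, 13 had a lower ratio in every adenoma than in every wild-type library, and 4 a higher one. Over all tested genes these shares were 11.5% and 17.5%. The Myh11 ratio was 2.595, 2.93 and 2.56 in wild type 1 to 3 and 0.968, 1.095, 1.28, 0.892 and 1.39 in adenomas 1 to 5, so wild-type libraries held 2.69 ± 0.202 (SD, n = 3) Myh11 counts per Acta2 count and adenomas 1.12 ± 0.207 (n = 5). Wild type 3, low in most muscle genes, had a ratio near those of the other wild-type libraries, and adenoma 2, high in most of them, lay within the range of the other adenomas. For Synpo2, Synm and Chrm2 every adenoma was also below wild type, with mean adenoma ratios at 0.437, 0.4302 and 0.431 of wild type. The Tagln ratio was 0.533, 0.578 and 0.539 in wild type 1 to 3 and 0.595, 0.661, 0.566, 0.583 and 0.602 in adenomas 1 to 5, and that of Flna 4.27 ± 0.203 in wild type and 4.39 ± 0.405 in adenoma. The ranges of Tagln and Flna overlapped between the groups, while Pdlim7 was 4.64 times and Csrp1 2.09 times its wild-type ratio. These ratios are given as descriptions and were not tested.

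**Figure D4:**
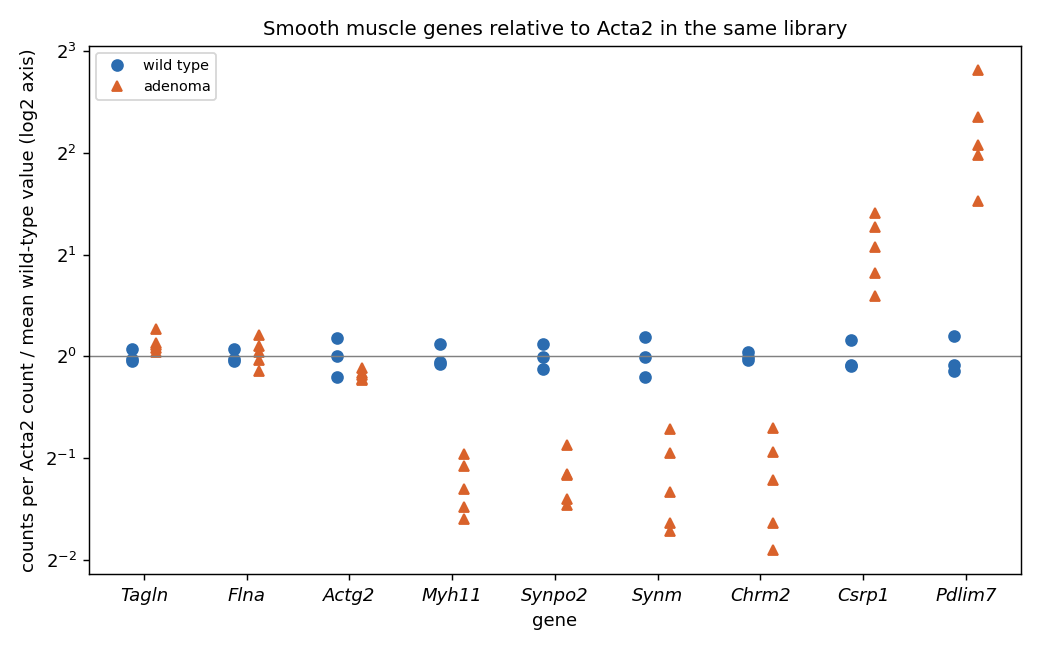
Counts of 9 genes per Acta2 count in each library, divided by the mean of the 3 wild-type libraries (log2 axis; circles, wild type; triangles, adenoma). Tagln, Flna and Actg2 stay near 1, Myh11, Synpo2, Synm and Chrm2 lie below wild type in every adenoma, and Csrp1 and Pdlim7 above.

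Further smooth muscle genes were read from lists of their own. Of 32 tested genes for control of contraction, 14 fell and 3 rose, and their median log2 fold change was -0.53. The all-gene shares were 27.8% lower and 30.3% higher. Gucy1a1, a subunit of the nitric oxide receptor that makes cyclic GMP, went from 27.98 ± 2.98 to 14.2 ± 1.31 CPM, and Rock1, a kinase that holds back the myosin phosphatase, from 122 ± 4.296 to 83.9 ± 3.92 CPM. Ppp1r12a, the other common myosin phosphatase targeting subunit, went from 163 ± 13.1 to 103 ± 10.1 CPM. The rises were in Ano1, a chloride channel of pacemaker cells and epithelia, from 18. ± 1.49 to 101 ± 28.2 CPM, in Mprip (log2 fold change 0.50) and in the phosphatase catalytic subunit Ppp1cb (0.37). Scaled to equal counts of epithelial genes, 12 fell and 1 rose, with Mprip and Ppp1cb no longer called. Their summed CPM ran from 1854 to 1915 in the wild-type libraries and from 1717 to 1813 across adenomas.

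Of 44 further cytoskeletal and membrane genes tested, 14 fell and 13 rose, and their median was -0.075. These shares are near the 27.8% lower and 30.3% higher of all genes, and without wild type 3 the number that rose was 8. Svil, supervillin, fell from 141 ± 0.174 to 68.8 ± 9.93 CPM, and Dmd, dystrophin, from 65.96 ± 7.86 to 38.2 ± 1.83 CPM. Among the genes that rose were 3 filament genes common outside muscle. Tpm4, a non-muscle tropomyosin, rose from 81.5 ± 0.838 to 249 ± 29.6 CPM. Actn1, an actinin made in smooth muscle and also outside it, rose from 101 ± 13.9 to 249 ± 12.8 CPM. Cnn3, the acidic calponin, rose from 48.1 ± 1.78 to 117 ± 10.6 CPM. With the main scaling the log2 fold changes of Tpm4, Actn1 and Cnn3 were 1.61, 1.30 and 1.28 (adjusted p = 3.15e-05, 5.61e-05 and 2.99e-05), against -0.85 for the muscle tropomyosin Tpm2. These 3 rises were also called with epithelial scaling, at 1.34, 1.05 and 1.04, where 12 of the 44 genes fell and 4 rose. The non-muscle myosin heavy chain Myh9 had a value of 0.28 and was not called. Another actinin of this list, Actn4, went the other way. Actn4 fell from 530 ± 53.2 to 306 ± 19.6 CPM (log2 fold change -0.79, adjusted p = 4.89e-04), and was also lower with epithelial scaling, at -1.05.

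Regulators of muscle genes were mixed, with 4 of 19 tested lower and 5 higher and a median of 0.023. Neither count exceeds the all-gene shares of 27.8% and 30.3%. Without 1 library the higher calls were 1 (wild type 3), 2 (wild type 2) or 3 (wild type 1, adenoma 3 or adenoma 4), and the lower calls were 7 without adenoma 2. Srf itself rose, from 39.5 ± 3.12 to 47.4 ± 1.91 CPM (log2 fold change 0.27, adjusted p = 0.021, or 0.023 and not called with epithelial scaling), and Foxf1, a factor of gut mesenchyme, from 21.3 ± 3.16 to 30.6 ± 5.14 CPM. The myocardin-related cofactors Mrtfa and Mrtfb were at -0.30 and -0.36 and were not called. The 4 that fell were Cited2 (-1.15), Meis1 (-1.01), Mef2d (-0.64) and Mef2c (-0.85), and the largest rise was in Hey1, a Notch target, from 2.22 ± 0.639 to 17.3 ± 5.36 CPM. With epithelial scaling 3 fell and 2 rose, and Mef2d and Foxf1 were no longer called.

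Markers of other cells in the gut wall did not all follow the muscle genes. The counts below stand beside all-gene shares of 27.8% lower and 30.3% higher. Enteric glia genes had 8 of 9 lower, with Kcna1 from 3.93 ± 1.33 to 0.331 ± 0.168 CPM, Gpr37l1 from 1.29 ± 0.123 to 0.316 ± 0.0858 CPM and Gfap from 1.196 ± 0.0793 to 0.299 ± 0.117 CPM. Their summed CPM ran from 501 to 614 in the wild-type libraries and from 237 to 397 across adenomas, most of it from Erbb3, which epithelium also makes and which went from 528 ± 55.5 to 339.5 ± 66.2 CPM. Enteric neuron genes had 5 of 13 lower and 2 higher, with Prph from 4.99 ± 1.14 to 1.75 ± 0.547 CPM, Elavl4 from 1.701 ± 0.278 to 0.464 ± 0.253 CPM and Snap25 from 4.44 ± 0.115 to 2.48 ± 0.519 CPM, and sums of 58.98 to 62.8 and 42.5 to 57.4 CPM. The 2 that rose were Ret (1.05 on the log2 scale) and Nefl (2.16), and Nefm held 21 counts over all libraries. Leaving out wild type 1, wild type 3 or adenoma 5 left 3 lower, leaving out wild type 3 left 1 higher, and Ret was not called with epithelial scaling. Genes of pericytes and vascular muscle, cells that share Acta2, Tagln and Myl9 with the gut wall, had 5 of 9 higher and 1 lower. Pdgfrb rose from 51.1 ± 3.998 to 90.4 ± 6.54 CPM, Kcnj8 from 8.399 ± 2.78 to 24.8 ± 1.51 CPM and Mcam from 33.5 ± 5.105 to 63.1 ± 3.93 CPM, while Cspg4 fell from 36.9 ± 1.63 to 17.3 ± 2.52 CPM. Their sum ran from 293 to 383 CPM (wild type) and from 402 to 439.7 CPM across adenomas.

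Fibroblast genes had 7 of 14 higher and 4 lower, with 2 lower when wild type 2 or wild type 3 was left out. The all-gene shares were 27.8% lower and 30.3% higher, so the 4 lower were near the share of all genes. Col1a1 rose from 133 ± 44.7 to 446 ± 73.3 CPM and Dcn from 132 ± 12.6 to 290.4 ± 39.2 CPM, as did Col1a2 (1.58 on the log2 scale), while Fbln1 fell from 180.2 ± 24.3 to 72.3 ± 13.8 CPM, as did Clec3b (-3.13) and Col6a2 (-0.56). The sum of the list was 1741 to 2169.6 CPM (wild type) and 3039.9 to 3878 CPM across adenomas. Genes of subepithelial myofibroblasts and telocytes, which also make some contractile proteins, had 6 of 11 higher, among them Wnt5a (1.99), Bmp7 (2.24) and F3 (2.43), and 2 lower, Sox6 (-1.74) and Hhip (-2.11), with sums of 406 to 452 and 587 to 880.3 CPM. Endothelial genes had 6 of 10 higher, among them Cdh5 (1.64), Tie1 (0.54) and Eng (0.63), with sums of 191 to 223 and 226 to 324 CPM. Macrophage genes had 1 of 8 each way, Cd14 up (2.79) and Csf1r down (-0.82), with sums of 309 to 327 and 236 to 483 CPM. Pan-epithelial genes had 7 of 12 higher, among them Krt18 (2.54), Cldn3 (0.64) and Krt19 (1.16), and 1 lower, Vil1 (-1.46), with sums of 7025 to 8056 and 5954 to 11130.2 CPM, lowest in adenoma 2, where the muscle sum was the highest of the adenomas. With epithelial scaling the higher calls were 4 among fibroblast genes, 2 among pericyte and vascular genes and 2 among endothelial genes, and of the genes named here Pdgfrb, Mcam, Col6a2, Tie1, Eng and Cldn3 were then not called. Without wild type 3, 4 pan-epithelial genes were higher. The part of these other cells in the values of the muscle genes was not tested.

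**Figure D5:**
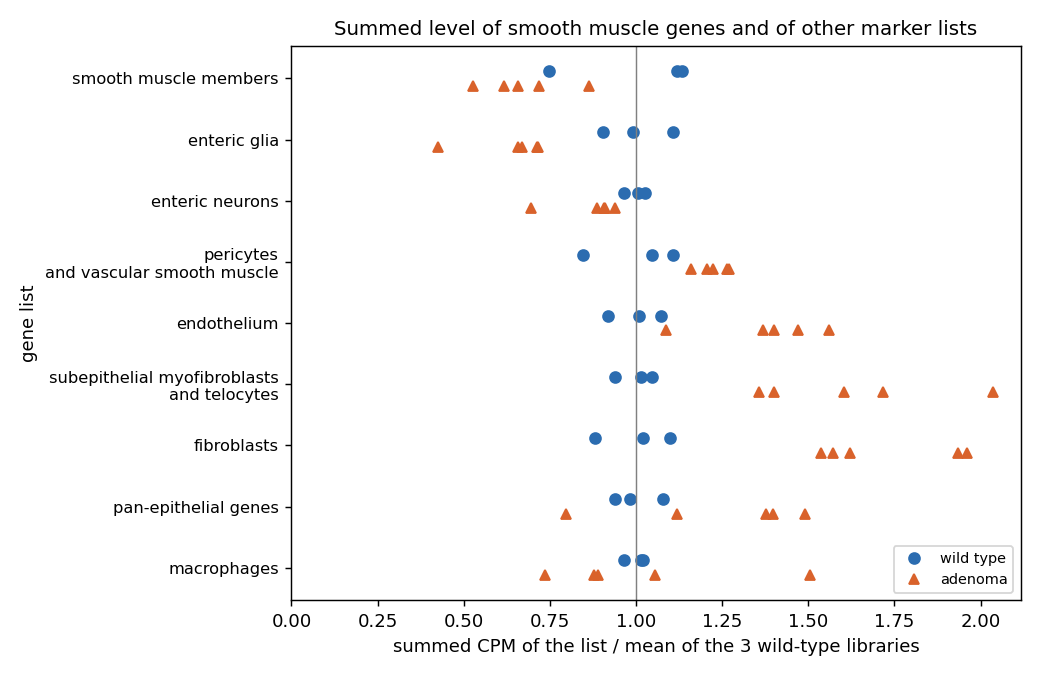
Summed CPM of each gene list in each library, divided by its mean over the 3 wild-type libraries (circles, wild type; triangles, adenoma). In adenomas the glia and neuron sums lie below every wild-type library and the muscle sum overlaps wild type, while the pericyte, endothelial, myofibroblast and fibroblast sums lie above.

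The counts bear on individual genes in a few ways. Genes called lower had a median of 6079 bases of merged exon and those not called 2092. The 4 called higher had 12041 (Cald1), 6253 (Chrm3), 4849 (Pdlim7) and 1956 bases (Csrp1). Spearman's rank correlation between exon length and log2 fold change was -0.38 across the 32 genes and -0.048 across 18110 genes with a length. The part of transcript length or RNA quality in these values was not tested. Actin copies share little at the read length of 36 bases, with 0.97% of the windows of Acta2 and 0.44% of those of Actg2 found in another gene. In GENCODE M21 the antisense gene Gm48529 covers 62.4% of the exon bases of Tagln, but it is not a row of the deposited table. Gm11946, which is, overlaps 16.3% of Smtn exon bases on the other strand and held 1172 counts against 4975, so reads of the pair cannot be told apart with a kit that does not mark strand.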

How the data were processed

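RNA was sequenced from 3 wild-type small intestine and 5 adenoma libraries, prepared per the labels' protocols with a TruSeq RNA v2 kit, which does not mark strand, and read as paired ends of 36 cycles. The authors deposited raw counts per gene, and per the submitters' processing notes FastQC, TopHat2, HTSeq and build GRCm38 were used. Their versions, the annotation and the strand setting: not given in the sources used here. Symbols, positions and merged exon lengths came from GENCODE M21 (GRCm38). Groups and replicate numbers came from the titles, and all 8 columns were matched by name.

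Tests were run in edgeR 4.0.16 (R 4.3.3) on the 18345 of 39179 genes that filterByExpr kept. After TMM scaling, robust quasi-likelihood fits compared the adenomas with the wild-type libraries, and p was adjusted over all genes tested by Benjamini-Hochberg, with 0.05 as the threshold. Sizes were tested with glmTreat against a factor of 2. CPM uses TMM library sizes, log2 CPM a prior count of 2, and the SE is the log2 fold change divided by the square root of F. The fit was tested on simulated data. The members and gene lists were chosen with earlier results of these data known. By rule, the members given in every library were the 2 with the largest change and the 1 with the highest level per kb in each role group, and every member called higher, and from each other list up to 3 members each way with the smallest adjusted p. 1 gene that this rule takes is not reported here. Ldb3 was added after its values were seen, as were Erbb3, Mrtfa, Mrtfb, Mef2c, Myh9, Actn4, Nefm, Kit, Upk3b and Gpm6a. The ratio to Acta2 and the looser CArG search were also chosen then. Alternatives were RLE, upper-quartile, total-count and pan-epithelial scaling, no filter, a 5 CPM filter (3 or more libraries), a replicate block, leaving out libraries, DESeq2 1.42.0 and limma-voom (limma 3.58.1), and leaving out 4 genes that collect ribosomal RNA reads, which took 10.7% to 23.5% of the counts. Replicates differed by more than sampling noise (chi-square per degree of freedom of at least 21.9), so none was counted as a copy.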

Additional observations from a re-analysis of the deposited data

Results flagged for a closer look

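Each of the 32 genes was checked for a single adenoma far from the other 4, and 3 values were flagged, where chance flags about 1 in 20. Myl9 in adenoma 1 was at 202 CPM, against 119.5 to 142 CPM in the other adenomas. Cald1 in adenoma 2 was at 92.1 CPM, against 64.7 to 69.4 CPM. Mustn1 in adenoma 2 was at 9.34 CPM, against 3.80 to 5.18 CPM. Adenoma 2 was also the highest adenoma for most of the other muscle genes.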

How the results depend on the processing

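The median log2 fold change of the 32 genes stayed negative in all 19 alternatives, from -0.92 to -0.63, and 7 of the 20 lower and 1 of the 4 higher calls held in every alternative that tested them. The 7 were Myh11, Synpo2, Mylk, Ppp1r12b, Prkg1, Ldb3 and Nexn, and the 1 was Pdlim7. Leaving out 1 library gave 11 to 24 muscle genes lower, 2 to 4 higher (2 without wild type 1, wild type 3 or adenoma 5), and 1 to 5 lower by more than a factor of 2, with 5 without adenoma 2 and 2 without adenoma 3. Over all genes the same runs gave 4135 to 6092 lower, 4529 to 6184 higher and 905 to 1944 lower by more than a factor of 2. Scaling by pan-epithelial genes moved the median of all genes by -0.24 and gave 13 muscle genes lower and 1 higher, and the number of all genes called higher was 1853, or 29.5% of calls against 52.2%. The muscle median relative to all genes was then -0.72 against -0.79. The samples with the same replicate number had deviations from their group mean with correlations of -0.018, 0.051 and 0.061. Pairs of unlike number ran from -0.13 to 0.14. With values centred on 3 and 5 libraries, this check cannot exclude a pairing. The fit with a replicate block called 9 muscle genes lower, all genes called higher were 3345 against 5558, and all genes called lower 3204 against 5099. Leaving out both libraries with pancreatic RNA, wild type 1 and adenoma 5, gave 10 lower and 2 higher. A filter of 5 CPM tested 29 of the 32 and called 2 higher. Lower by more than a factor of 2 were 2 genes with RLE, upper-quartile or pan-epithelial scaling or the 5 CPM filter. Of genes not called, Myl9 changed sign, at 0.044 with total-count scaling, 0.018 with no filter, 0.090 with the replicate block, 0.16 without wild type 1 and adenoma 5, and -0.27 to 0.15 leaving out 1 library. Tpm1 turned to -0.091 with pan-epithelial scaling, and Mustn1 ran from -0.096 to 0.33 leaving out 1 library. The cause of these changes was not tested. With 3 wild-type libraries, the precision of each value is limited, and genes of low counts such as Kcnmb1, Chrm3 and Rbpms2 have the least.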

Other observations

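Genes of interstitial cells of Cajal, the pacemaker cells of the muscle wall, went both ways, with 2 of 6 lower and 2 higher. The all-gene shares were 27.8% lower and 30.3% higher. Ano1, which epithelia also make, rose by 2.48 on the log2 scale (edgeR, adjusted p = 5.78e-05), with every adenoma above every wild-type library. The summed CPM of the list ran from 40.5 to 46.2 in the wild-type libraries and from 115 to 255 across adenomas. Etv1, a transcription factor of these cells, fell from 4.04 ± 0.986 to 1.38 ± 0.408 CPM and the channel gene Hcn4 from 1.29 ± 0.128 to 0.198 ± 0.191 CPM, while Kit, which mast cells also make, had a log2 fold change of 0.33 and was not called. Thbs4 rose from 0.651 ± 0.5095 to 21.9 ± 33.4 CPM, and adenoma 2 alone held 81.6 CPM against at most 10.6 CPM in the other adenomas. Striated muscle genes were low in all libraries, and Myh1 and Myh4 had 0 counts in each. The cardiac actin gene Actc1 fell from 1.17 ± 0.377 to 0.0822 ± 0.0511 CPM and creatine kinase, Ckm, from 5.35 ± 2.04 to 1.17 ± 0.549 CPM, while the troponin genes Tnnt2 and Tnni2 rose, from 2.85 ± 1.1 to 5.08 ± 0.928 CPM and from 0.474 ± 0.379 to 1.57 ± 0.215 CPM. With epithelial scaling Thbs4, Tnnt2 and Tnni2 were not called. Among genes of mesothelium, which covers the outer muscle wall, Upk1b fell from 5.26 ± 0.226 to 2.78 ± 0.847 CPM and Msln rose from 4.36 ± 3.79 to 21.001 ± 8.52 CPM. Krt19, also on this list and called higher, is made by epithelium. Upk3b (-1.64 on the log2 scale) and Gpm6a (-1.11) were not called, and the median of the 5 tested genes was -0.92. Leaving out 1 library gave 1 to 6 genes of this list lower and 1 to 2 higher. The low-count filter was applied anew in each such run, so more than these 5 of the 8 listed genes could be tested. Of pancreatic genes, Cela1 went from 40.5 ± 64.04 to 115 ± 27.5 CPM and Ctrb1 from 44.3 ± 76.3 to 38.6 ± 85.1 CPM, neither of them called.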
